A study of Mus musculus with 2 samples.

Results

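The 9 genes described here, Irf8, Irf4, Spi1, Cebpa, Cebpb, Klf4, Batf3, Zbtb46 and Maf, encode transcription factors of the myeloid lineage. They were taken as a list, and all 9 were found among the 32285 genes of the files, of which 23475 had a count in a cell that was kept. The data are 2 single-cell RNA libraries of CD45+ cells, that is white blood cells, sorted from the digested retinal pigment epithelium (RPE) and choroid of mouse eyes. One library (flox) came from mice with the genotype IL-17ra fl, which carry a floxed gene for the interleukin-17 receptor subunit, and the other (knockout) from mice labelled IL-17RA CKO, a conditional knockout. All mice of both groups had received NaIO3, an oxidant that injures the RPE, at 20 mg/kg into the peritoneum, so there is no uninjured group. No source used here names the promoter that drives the knockout, the cells it acts in, the sex and age of the mice or how many were pooled. With 1 library per group, no difference between genotypes has a replicate check, and all intervals below cover counting error only.

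Myeloid cells take their identity from a small set of DNA-binding proteins that work in combination. PU.1 (the product of Spi1) and the C/EBP proteins open the myeloid programme. IRF8 and BATF3 direct conventional dendritic cells of type 1 (cDC1), which cross-present antigen, while IRF4 and KLF4 act in those of type 2 (cDC2). ZBTB46 marks conventional dendritic cells, C/EBPβ and KLF4 act in monocytes, and c-Maf (the product of Maf) acts in tissue macrophages and in several T cell states.

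The genes are spread over the mm10 (GRCm38) mouse genome, and all are protein-coding in GENCODE M21. Irf8 spans chr8:120736358-120756694 and Irf4 chr13:30749226-30766976, both on the plus strand. Batf3 spans chr1:191097847-191108945 on the plus strand and Zbtb46 chr2:181387762-181459426 on the minus strand. Spi1 (chr2:91082390-91115756), Cebpb (chr2:167688915-167690418) and Cebpa (chr7:35119293-35121928) are on the plus strand. Klf4 (chr4:55527143-55532466) and Maf (chr8:115682942-115707794) are on the minus strand. RefSeq promoter windows (GRCm38.p6, 250 bases before to 50 after a start site) were at hand for 7 of the 9 genes, Spi1 and Maf being the others, with 2 windows for Irf8. The 250 bases before the start are shown for Irf8 and Irf4, the genes on which the comparison of dendritic cells below turns. They lie at chr8:120736108-120736357 and chr13:30748983-30749232, both on the plus strand and written 5′ to 3′, and capitals mark matches to the GAS motif TTCNNNGAA, the sequence that STAT proteins bind.
Irf8: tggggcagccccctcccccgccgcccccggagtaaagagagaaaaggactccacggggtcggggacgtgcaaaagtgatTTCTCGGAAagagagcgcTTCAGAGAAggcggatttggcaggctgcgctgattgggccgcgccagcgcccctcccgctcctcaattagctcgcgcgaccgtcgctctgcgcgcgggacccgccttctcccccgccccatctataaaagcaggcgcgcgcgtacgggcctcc
Irf4: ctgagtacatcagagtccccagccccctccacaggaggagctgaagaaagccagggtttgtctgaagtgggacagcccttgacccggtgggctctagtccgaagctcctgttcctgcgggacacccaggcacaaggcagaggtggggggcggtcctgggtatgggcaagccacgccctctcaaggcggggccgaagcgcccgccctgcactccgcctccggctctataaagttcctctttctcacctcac
The Irf8 window shown holds this motif at bases 80 to 88 and at bases 98 to 106, counted from the 5′ end. The other Irf8 window, not printed, and the Irf4 window do not hold it. The Batf3 window, not printed, holds it at bases 12 to 20. Of 32851 promoters in the table, 8.30% hold a match on either strand, and 2 of the 7 member genes do. The AP-1 site TGANTCA (7.81% of all promoters) and the Maf half-site TGCTGAC (4.67%) were found in the window of Zbtb46 only among the 7 genes. The Zbtb46 and Batf3 windows lie inside the spans of their genes, past the starts of other annotated transcripts. The ETS core GGAA, which PU.1 recognises, was found in 6 of the 7 genes against 96% of all promoters, and the Klf box GGGTG in 5 of the 7 against 57.5%. The PU.1 box GAGGAAGT (3.20%), the ISRE core GAAANNGAA (8.56%), the ETS-IRF composite element GGAANNGAA (8.24%) and the C/EBP motifs TTGCGCAA (0.183%) and TTNNGNAA (40.7%) had no match in the member windows. The GGAA core lies within the PU.1 box and the composite element, so these searches overlap. The matches are descriptions of letters and not binding sites.

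Cells were assigned to gates by raw counts of unique molecular identifiers (UMIs, 1 per captured RNA molecule) of a few surface and secreted markers, none of which is a member. After keeping barcodes with at least 1000 UMIs and less than 10% mitochondrial UMIs, 3420 flox and 3982 knockout cells remained, with medians of 8741.5 and 7714 UMIs, and 3 of the 7402 barcodes occurred in both libraries. The flox and knockout libraries gave 416 and 312 classical monocytes (F13a1 and Chil3), 545 and 523 nonclassical monocytes (Cd300e and Adgre4), 543 and 518 patrolling monocytes (Ace and Treml4), 97 and 64 cDC1 (Xcr1 and Clec9a), 203 and 150 cDC2 (Cd209a and Clec10a), 61 and 64 macrophages (C1qa, C1qb and C1qc) and 632 and 1007 B cells (Cd79a). T cells (Cd3d, Cd3e and Cd3g, 1380 and 1673 cells) served as a lymphoid comparison. A cell can meet several gates. The nonclassical and patrolling gates share 472 flox and 459 knockout cells and are nearly the same population. The classical and nonclassical gates share 168 and 130 cells, the classical and cDC2 gates 59 and 50, and the cDC1 and cDC2 gates 30 and 25.

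The gates differed in their other markers, with mixtures. CPM, a scale that corrects for depth, sets the UMIs of a gene against all UMIs of the cells of the gate. In the classical gate 6 further classical markers summed to 3588 CPM in flox and 3262 CPM in knockout, against 776 and 580 CPM in T cells. For 7 nonclassical markers the nonclassical gate had 3245 and 3320 CPM, and T cells 416 and 415 CPM. For 6 cDC1 markers the cDC1 gate had 1674 and 1217 CPM, and T cells 47.0 and 46.7 CPM. The cDC2 gate was less distinct. Its 6 cDC2 markers summed to 533 and 499 CPM, below its classical markers at 1989 and 1631 CPM, and knockout macrophages had 529 CPM of cDC2 markers. In the macrophage gate 6 macrophage markers summed to 3801 and 11095 CPM, of which Apoe alone made 3410 and 10195 CPM. There 6 microglia markers summed to 349 and 823 CPM, so the 2 macrophage gates differ in these markers. Whether the cells present or their level per cell differed was not tested. Plasmacytoid dendritic markers summed to 479 and 682 CPM in the cDC1 gate and to 332 and 540 CPM in the cDC2 gate. RPE markers reached 582 CPM in the knockout classical gate against 4.06 in flox, and 2 cells of that gate held more than 20 such UMIs, 1 of them 1789. Cells with Xist and no Y-linked UMI were 2248 in flox and 1565 in knockout, and cells with a Y-linked and no Xist UMI 537 and 1379, so both libraries mix the sexes in different proportions. Over all kept cells, Il17ra itself was at 132 CPM in the flox library and 123 CPM in the knockout library (ratio 0.931, 95% interval 0.893 to 0.970). These 3' counts need not cover a deleted exon, so they do not check the label.

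Irf8 was highest in cDC1 in both libraries. Its level there was 972 CPM in flox (95% interval 931 to 1014, 2167 UMIs) and 1021 CPM in knockout (970.1 to 1073, 1527 UMIs), and these intervals overlap. The median flox cDC1 held 22 Irf8 UMIs. Every other gate was lower, from 169 to 249.6 CPM in flox and from 134 to 292 CPM in knockout, and T cells stood at 18.3 and 20.3 CPM. In flox the order below cDC1 was B cells, macrophages, cDC2, patrolling, nonclassical and classical monocytes, and each of these neighbours overlapped the next. Thinned to 1000 UMIs per cell, 48.5% of flox and 56.2% of knockout cDC1 had an Irf8 UMI (90.7% and 84.4% at full depth), against 0.870% and 1.14% of T cells (8.91% and 8.79% at full depth).

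The level of Irf8 in cDC1 over that in cDC2 was 5.15-fold in flox (4.73 to 5.61) and 3.63-fold in knockout (3.32 to 3.96). Of all genes measured, 9.46% in flox and 6.95% in knockout were at least 1.5-fold higher in cDC1 than in cDC2 with an interval that leaves out 1, the rule used for every such count below. The smaller fold in knockout came with a higher Irf8 level in its cDC2 gate, 281 CPM (262 to 302) against 189 CPM (175 to 203) in flox. These intervals do not overlap, and the ratio of 1.49 (1.34 to 1.65) was just under 1.5-fold. It passed that size in cells of exactly 1 gate (1.68, 1.37 to 2.05), in Y-only cells (2.34, 1.87 to 2.94) and in cDC2 cells outside the classical and cDC1 gates (107 and 189 CPM, 1.77, 1.48 to 2.12).

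Few cells carried that Irf8 signal in cDC2. Cells with at least 5 UMIs of Siglech, Ccr9, Klk1 and Cox6a2 together, markers of plasmacytoid dendritic cells, which are interferon producers known for high Irf8, were 16 of 203 in flox and 15 of 150 in knockout. They held 51.7% of the gate's Irf8 UMIs in flox and 64.4% in knockout. Within them the Irf8 level was 1372 CPM in flox but 2055 CPM in knockout. In the other cDC2-gated cells it was 98.2 CPM in flox and 109.8 CPM in knockout, a ratio of 1.12 (0.950 to 1.32). In cDC1 the same split gave 936 and 847 CPM without these cells (0.904, 0.838 to 0.976) and 1252 and 1874 CPM with them. The split was made after the values had been seen.

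Irf8 was also high outside the gates. Cells in none of the gates with at least 3 UMIs of natural killer markers (Ncr1, Klrb1c, Klre1, Eomes and Prf1), 220 in flox and 293 in knockout, had 906 and 895 CPM, close to the level of the cDC1 gate. Spi1 stood at 3.22 and 5.81 CPM and Batf3 at 1.07 and 3.58 CPM in these cells. The remaining ungated cells had 149 and 99.5 CPM of Irf8.

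**Figure D1:**
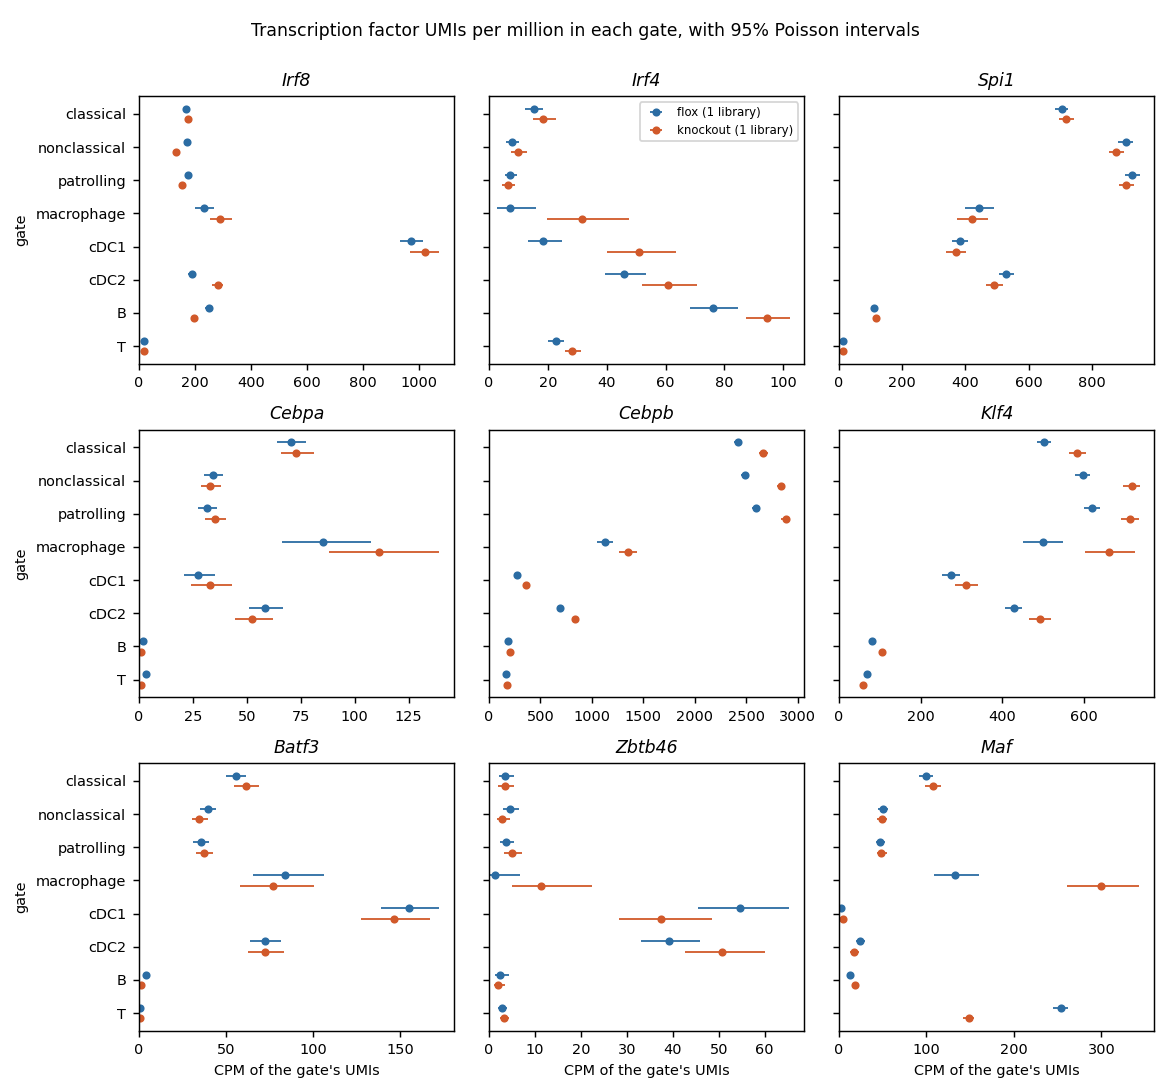
Level of each gene (CPM of the gate's UMIs, linear axes that differ between panels) in 8 gates of the flox and knockout libraries, with points for the 1 library per group and bars for 95% Poisson intervals. Irf8 and Batf3 are highest in cDC1, Cebpb is above 2400 CPM in the monocyte gates only, and Maf differs between the libraries most visibly in the macrophage and T cell gates.

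Batf3, the partner of IRF8 in cDC1, followed the same order in both libraries at the top. It stood at 155 CPM in flox cDC1 (139 to 172) and 146 CPM in knockout cDC1 (128 to 167), with overlapping intervals, and next came macrophages at 84.1 and 77.2 CPM and cDC2 at 72.3 and 72.5 CPM. Over classical monocytes, cDC1 had 2.79-fold (2.40 to 3.24) more in flox and 2.37-fold (1.99 to 2.83) more in knockout, where 20.6% and 17.4% of all genes met the rule. Of 97 flox cDC1, 64 had UMIs of both Irf8 and Batf3, and of 64 knockout cDC1, 33 did. In B cells Batf3 was near nothing, with 19 UMIs in 632 flox cells (4.20 CPM) and 9 UMIs in 1007 knockout cells (1.31 CPM). The ratio of 0.312 (0.124 to 0.724) was the only one in the 7 gates that met the rule in the lower direction. In flox 5 of the 19 UMIs and in knockout 5 of the 9 lay in 1 cell.

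Zbtb46, a repressor found in conventional dendritic cells and their precursors, separated both dendritic gates from monocytes. Its level was 54.7 CPM in cDC1 and 39.1 CPM in cDC2 of flox, and 37.4 and 50.8 CPM in knockout, while no monocyte gate exceeded 4.98 CPM. Over classical monocytes, cDC2 had 10.9-fold more in flox (6.99 to 17.7) and 14.7-fold more in knockout (8.88 to 26.0), where 14% and 12.8% of all genes met the rule. The knockout over flox ratios of the dendritic gates lay on opposite sides of 1, at 0.684 (0.489 to 0.946) in cDC1 and 1.30 (1.02 to 1.65) in cDC2, and neither reached 1.5-fold in the whole gates. Both did in cells gated more narrowly: 60.6 and 36.6 CPM (0.603, 0.402 to 0.887) in cDC1 cells outside the cDC2 gate, and 50.4 and 76.3 CPM (1.51, 1.15 to 1.99) in cDC2 cells outside the classical and cDC1 gates. The cDC1 ratio also met the rule as a mean of each cell's CPM and in Xist-only cells (log2 ratio -1.07). In nonclassical monocytes the levels were 4.54 and 2.90 CPM (31 and 18 UMIs), and the ratio of 0.639 has an interval that holds 1 (0.336 to 1.18). In macrophages only 1 flox and 8 knockout UMIs were found, too few to be measured.

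Irf4 is required in cDC2 and in activated lymphocytes. B cells were highest, at 76.1 CPM in flox (68.3 to 84.6) and 94.6 CPM in knockout (87.4 to 102). The cDC2 gate came next at 46.0 CPM (39.4 to 53.4) and 60.7 CPM (51.8 to 70.8). In flox the level in cDC2 was 2.5-fold (1.77 to 3.61) that in cDC1, and 11.0% of all genes met the rule. In knockout the ratio was 1.20 (0.906 to 1.59), which did not meet it, against 8.32% of all genes. Without the cells that met both gates the knockout contrast did meet it (log2 ratio 1.61). Over 16 alternative settings the knockout log2 ratio ran from -0.97 to 1.84, and the call changed in 5, so its direction is not settled.

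Between the libraries Irf4 differed more in the cDC1 gate than in the cDC2 gate, where the ratio was 1.32 (1.06 to 1.64). Its level in cDC1 was 18.4 CPM in flox (13.2 to 24.9, 41 UMIs) and 50.8 CPM in knockout (40.0 to 63.6, 76 UMIs), and the intervals do not overlap. The ratio was 2.76 (1.87 to 4.14), and the share of cells with an Irf4 UMI was 21.6% and 37.5% at full depth. Thinned, it was 3.09% and 7.81%, which rests on 3 of 97 and 5 of 64 cells. The Irf4 level was higher in knockout in cells with Xist only (26.5 and 127 CPM, 36 and 42 UMIs). The same held in cells with Y-linked UMIs only (2.86 and 30.3 CPM, 2 and 25 UMIs).

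Most of these UMIs lay in cells that met both dendritic gates. Those 30 flox and 25 knockout cells held 30 of the 41 and 61 of the 76 UMIs, at 53.2 and 126 CPM, a ratio of 2.37 (1.504 to 3.79). In cells of the cDC1 gate outside the cDC2 gate, Irf4 stood at 6.60 CPM in flox (11 UMIs) and 14.8 CPM in knockout (15 UMIs), and the ratio of 2.25 (0.964 to 5.41) has an interval that holds 1. Leaving out cells with plasmacytoid markers instead gave 9.11 and 47.5 CPM, a ratio of 5.21 (3.03 to 9.39). In cells of both gates that lacked those markers (21 flox and 16 knockout cells) the levels were 37.4 and 155 CPM. In the knockout cDC1 gate, neutrophil markers summed to 202 CPM against 4.93 in flox and RPE markers to 135 CPM against 0.897, and their part in the result was not tested.

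**Figure D2:**
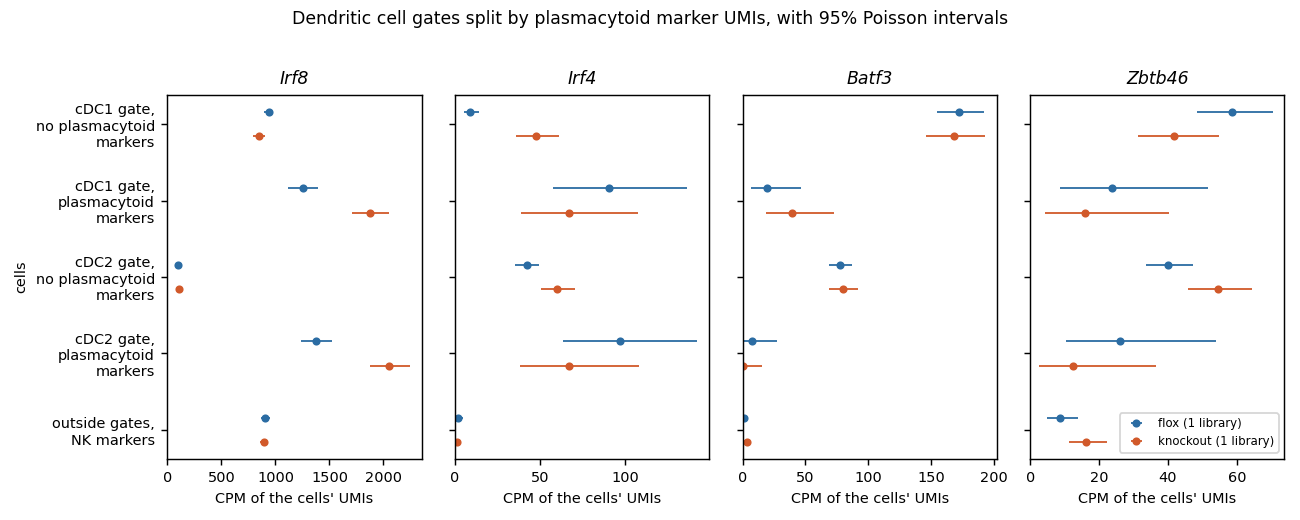
Level (CPM of the cells' UMIs, linear axes) of Irf8, Irf4, Batf3 and Zbtb46 in the cDC1 and cDC2 gates, split by whether a cell held at least 5 plasmacytoid marker UMIs, and in ungated cells with natural killer markers. Points are 1 library each and bars are 95% Poisson intervals. Irf8 exceeds 1200 CPM in the cells with plasmacytoid markers of both gates, and the Irf4 difference between libraries in cDC1 lies in the cells without them.

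Spi1 was a pan-myeloid gene in these data and, over whole gates, the steadiest of the 9 between libraries. PU.1 is the ETS factor that all monocytes and macrophages need. Its gene was highest in patrolling monocytes, at 928 CPM in flox (905 to 952) and 909.6 CPM in knockout (886 to 934), followed by nonclassical at 907 and 878 CPM and classical monocytes at 704 and 719 CPM. The cDC2 gate had 529 and 492 CPM, macrophages 444 and 422 CPM, cDC1 382 and 369 CPM, and B cells 110.0 and 118 CPM. T cells stood at 13.6 and 13.4 CPM, so classical monocytes exceeded them 52.0-fold in flox (44.7 to 60.8) and 53.6-fold in knockout (46.4 to 62.3), where 21.3% and 21% of all genes met the rule. The 7 knockout over flox ratios ran from 0.930 to 1.07, and only that in cDC2 (0.867 to 0.998) had an interval that leaves out 1. Subsets varied more. In cells with plasmacytoid markers the ratio was 0.372 (0.216 to 0.619) in the cDC2 gate and 0.564 (0.362 to 0.867) in the cDC1 gate. In cells without them it was 0.963 (0.897 to 1.03) and 1.04 (0.930 to 1.16).

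Cebpa, which starts the granulocyte and monocyte programme in progenitors, was highest in macrophages, at 85.3 CPM in flox (66.5 to 108) and 111 CPM in knockout (88.1 to 139). Classical monocytes had 70.5 and 73.0 CPM, overlapping macrophages in flox and lying below them in knockout, and nonclassical monocytes 34.3 and 33.2 CPM, with intervals that do not overlap those of the classical gate. B cells held 8 and 6 UMIs in all (1.77 and 0.876 CPM), and whether these were free RNA is not known. Classical monocytes exceeded B cells 39.8-fold (20.1 to 92.9) and 83.4-fold (37.9 to 229), where 24.8% and 25.1% of all genes met the rule. In each of the 6 gates where Cebpa was measured, the genotype ratio lay between 0.900 and 1.31 with an interval that holds 1.

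Cebpb, the inducible family member of inflammatory myeloid cells, had its highest levels in the 3 monocyte gates. Flox levels were 2419 CPM in classical, 2492 in nonclassical and 2598 CPM in patrolling monocytes. Knockout levels were 2668, 2839.8 and 2883 CPM, and no interval overlapped that of the other library. Nonclassical over classical ratios were 1.03 (1.01 to 1.05) in flox and 1.06 (1.04 to 1.09) in knockout, short of 1.5-fold, where 10.2% and 9.35% of all genes met the rule. Macrophages had 1126 and 1351 CPM, cDC2 692 and 839 CPM, and cDC1 268 and 358 CPM.

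Cebpb in the cDC2 gate came largely from cells that also met the classical gate. Such cells outside the cDC1 gate (54 flox and 48 knockout) stood at 1748 and 2015 CPM, while cells in neither the classical nor the cDC1 gate stood at 237 and 357 CPM (ratio 1.51, 1.33 to 1.71). In cDC1 the difference ran in opposite directions in subsets: 171 and 422 CPM (ratio 2.48, 2.13 to 2.89) in cells outside the cDC2 gate, but 557 and 223 CPM (ratio 0.400, 0.319 to 0.4995) in cells of both dendritic gates. In cells that met exactly 1 gate, cDC1 levels were 118 and 166 CPM (ratio 1.41, 1.12 to 1.77). With a gate minimum 2 UMIs higher the direction turned, at 158 and 102 CPM (0.644, 0.501 to 0.821).

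Klf4, a zinc finger factor of monocytes and of a branch of cDC2, had its highest levels in the patrolling and nonclassical gates, as Cebpb did. Unlike Cebpb, Klf4 in macrophages overlapped classical monocytes in both libraries. It was highest in patrolling monocytes of flox at 621 CPM (602 to 639.8) and in nonclassical monocytes of knockout at 718 CPM (697 to 739.8), and in each library these 2 gates overlapped. Classical monocytes had 502 and 585 CPM, macrophages 499.7 and 663 CPM, cDC2 429 and 493 CPM, cDC1 275 and 312 CPM, and B cells 81.2 and 104 CPM. Classical monocytes exceeded cDC1 1.83-fold in flox (1.68 to 1.99) and 1.87-fold in knockout (1.70 to 2.07), where 18.8% and 17.2% of all genes met the rule. The knockout over flox ratio of Klf4 was above 1 in each of the 7 gates, from 1.14 to 1.33, and that of Cebpb likewise, from 1.08 to 1.33. In T cells Klf4 went the other way, at 69.6 CPM in the flox and 58.8 CPM in the knockout library (0.845, 0.769 to 0.929). The gates share cells, so these are not 7 separate observations. No share of all genes with a ratio above 1 in every gate is at hand to set beside them. The direction did not hold in every setting: Klf4 in cDC1 had a log2 ratio of -0.24 in cells of exactly 1 gate, -0.06 in Y-only cells and -0.04 after thinning, and Klf4 in cDC2 one of -0.24 after thinning. Cebpb was below 1 in macrophages of exactly 1 gate (-0.28), in macrophages among Xist-only cells (-0.96), and in 5 gates among Y-only cells, down to -0.44 in B cells.

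Maf was highest in macrophages among the 7 gates and nearly absent from cDC1. Macrophages had 133 CPM in flox (109 to 160.2, 109 UMIs) and 300.1 CPM in knockout (261 to 344, 210 UMIs), and the intervals do not overlap. The ratio was 2.26 (1.78 to 2.87). Classical monocytes had 99.4 and 107 CPM, nonclassical 49.9 and 48.6 CPM, and cDC1 6 UMIs in each library. Macrophages over classical monocytes gave 1.34 (1.08 to 1.64) in flox and 2.80 (2.38 to 3.30) in knockout, where 12.5% and 14.8% of all genes met the rule, so only the knockout value met it.

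The higher Maf level in knockout macrophages lay in a subset of cells. Cells with a UMI of P2ry12, Tmem119 or Sall1, genes of microglia (the resident macrophages of the retina and brain), were 25 of 61 in flox and 31 of 64 in knockout. Their Maf level was 84.3 CPM in flox (31 UMIs) and 563 CPM in knockout (158 UMIs), a ratio of 6.68 (4.52 to 10.2). A single knockout cell held 79 of these 158 UMIs, and without the highest cell of each library the levels were 73.8 and 301 CPM, a ratio of 4.08 (2.59 to 6.62). In the other cells it was 172 CPM in flox and 124 CPM in knockout, a ratio of 0.720 (0.497 to 1.04), in the opposite direction. In the whole gate that knockout cell held 37.6% of the UMIs, and without the highest cell of each library the log2 ratio was 0.87 in place of 1.17. The marked cells also differed in markers, and the part of these in the result was not tested. Macrophage markers, a sum that is mostly Apoe in the whole gate, stood at 3888 and 18961.5 CPM, and microglia markers at 590.0 and 1935 CPM. In cells with Xist only the levels were 119.8 and 589 CPM (ratio 4.91, 3.60 to 6.79), and in cells with Y-linked UMIs only 102 and 166 CPM (ratio 1.63, 0.827 to 3.49).

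**Figure D3:**
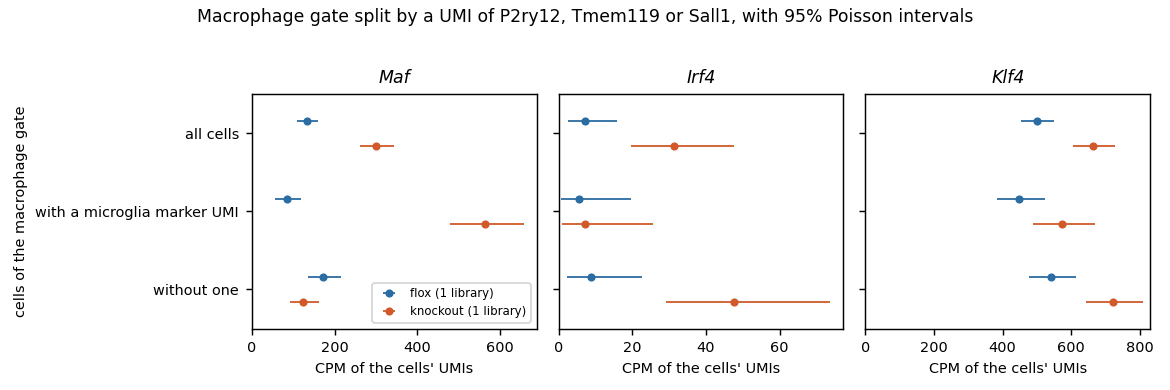
Level (CPM of the cells' UMIs, linear axes) of Maf, Irf4 and Klf4 in all cells of the macrophage gate and in those with and without a UMI of P2ry12, Tmem119 or Sall1. Points are 1 library each and bars are 95% Poisson intervals. Maf is 563 CPM in knockout against 84.3 CPM in flox in the cells with such a UMI, and 124 against 172 CPM in the others.

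Irf4 in macrophages was also higher in knockout, 31.4 CPM (22 UMIs) against 7.31 CPM (6 UMIs), a ratio of 4.30 (1.69 to 12.96). Here 13 of the 22 knockout UMIs and 4 of the 6 flox UMIs lay in 1 cell, and after leaving those cells out too few UMIs remained for a ratio. B cell markers in this gate summed to 18.3 and 84.3 CPM and T cell markers to 11.0 and 77.2 CPM, and their part in the result was not tested.

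Over the 63 pairs of a member and a gate, 60 had at least 20 UMIs in both libraries together. Of these, 1 was at least 1.5-fold lower in knockout, 3 were at least 1.5-fold higher and 56 were neither. Ratios above 1 were 39, and no share of all genes above 1 is at hand beside that count. The share of all genes that were lower and higher by the same rule was 3.56% and 4.09% in classical monocytes, 3.79% and 2.60% in nonclassical monocytes and 3.63% and 2.67% in patrolling monocytes, where no member met it. It was 3.96% and 5.28% in cDC1 (0 lower and 1 higher of 8 members measured) and 3.49% and 4.41% in cDC2 (0 of 9). In macrophages it was 7.49% and 9.60% (0 lower and 2 higher of 8), and in B cells 5.30% and 2.36% (1 lower and 0 higher of 8). Each of these counts rests on 1 or 2 genes. The median log2 ratio of the members ran from -0.05 in nonclassical monocytes to 0.35 in macrophages, beside medians of all genes from -0.01 in B cells to 0.05 in cDC2.

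**Figure D4:**
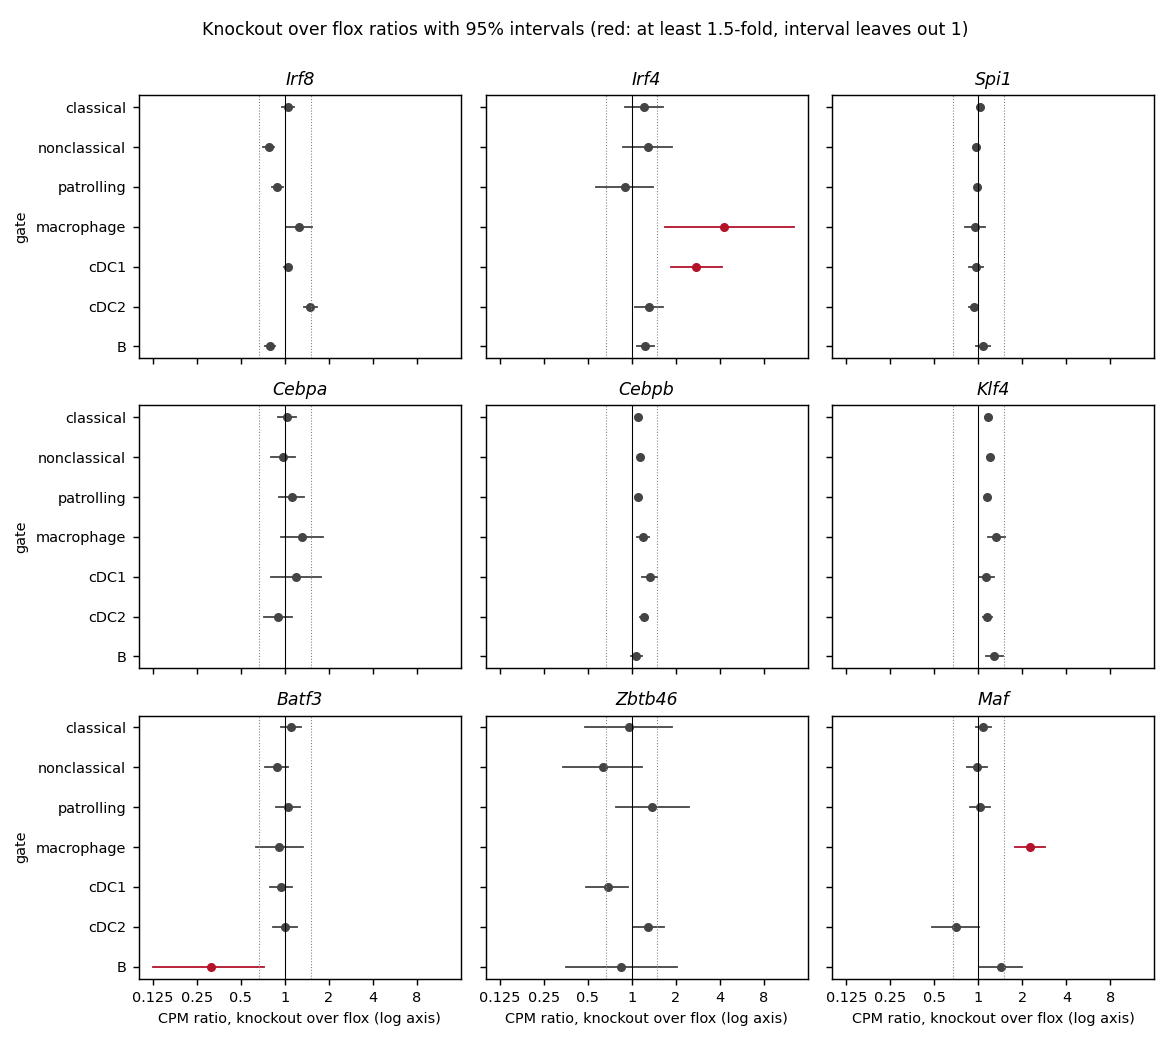
Knockout over flox ratio of each gene's CPM (log axis) in the 7 gates, with 95% conditional binomial intervals and dotted lines at 1.5-fold in each direction. Pairs with under 20 UMIs in both libraries are not drawn. The 4 red pairs are Irf4 in cDC1 and macrophages, Maf in macrophages and Batf3 in B cells, and the Klf4 and Cebpb points lie to the right of 1 in every gate in these values, though not in every alternative setting.

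Between those limits, Irf8 differed in direction among gates. It was lower in knockout in nonclassical monocytes, at 134 CPM (126 to 144) against 174 CPM (164 to 184), a ratio of 0.774 (0.707 to 0.846). The patrolling gate, which shares most of these cells, had a ratio closer to 1 (0.885, 0.811 to 0.965). The lower level was also seen in B cells, at 198 CPM against 249.6 CPM (0.792, 0.731 to 0.857). Macrophages (1.25, 1.02 to 1.53) and cDC2 (1.49, 1.34 to 1.65) were higher in knockout. In classical monocytes and cDC1 the interval held 1. Among nonclassical monocytes that met no other gate besides patrolling the ratio was 0.663 (0.583 to 0.754), past 1.5-fold. It was 0.727 (0.641 to 0.823) in the Xist-only cells and 0.968 (0.784 to 1.20) in the Y-only cells of the nonclassical gate.

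T cells, as the lymphoid comparison, held the second Maf pattern. The Maf level was 254 CPM in flox (245 to 262) and 148 CPM in knockout (142 to 155), a ratio of 0.585 (0.554 to 0.618), and 21.1% of flox and 10.3% of knockout T cells had a Maf UMI after thinning (49.1% and 30.5% at full depth). Cebpa was at 3.19 CPM (41 UMIs) and 1.03 CPM (15 UMIs) there, a ratio of 0.321 (0.165 to 0.592). These were the 2 lower members of 9 in T cells, with none higher, beside 4.68% and 3.21% of all genes lower and higher.

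Some low values could come from free RNA alone. In the 778499 flox barcodes with 100 UMIs or fewer, the profile held 929.9 CPM of Cebpb, 308 of Spi1, 183 of Klf4, 167 of Irf8, 86.5 of Maf, 44.8 of Batf3, 33.0 of Irf4, 18.0 of Cebpa and 12.4 CPM of Zbtb46. The share of a gate's UMIs taken as free RNA, scaled by genes of other cell types, was 2.17% to 11.1% in the myeloid and T cell gates and 39.2% and 39.0% in B cells. The profile times this share gives the level that free RNA could add, with the flox profile used for both libraries. In B cells the measured levels of Spi1, Cebpa, Cebpb, Batf3, Zbtb46 and Maf were at or under it in both libraries. Cebpb stood at 187 and 202 CPM against 364 and 363 CPM. Free RNA cannot add more than was measured, so where a level lies well under this estimate the share is too high. These values therefore do not show that the UMIs in B cells are free RNA. At full depth 43.0% of flox B cells had a Spi1 UMI, against 2.75% of flox T cells. The Batf3 ratio in B cells compares values that free RNA could reach. Measured levels were also at or under the estimate for Spi1 and Batf3 in T cells, for Cebpa in knockout T cells (1.03 CPM against 1.94) and for Maf in flox cDC1. For Irf4 the estimate was 1.30 and 1.22 CPM in cDC1 and 0.716 and 3.67 CPM in macrophages, under the measured levels.

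Of 24 further genes of the IRF, SPI, C/EBP, KLF, BATF and MAF families, 147 gene and gate pairs were measured, 14 lower and 11 higher in knockout. Over all genes the shares by gate were 3.49% to 7.49% lower and 2.36% to 9.60% higher, which also stand beside the counts of the lists below. Their median log2 ratio by gate ran from -0.02 to 0.15. Irf7, the interferon-induced amplifier of type I interferon, was lower in 6 of the 7 gates, from 525 to 124 CPM in macrophages (ratio 0.237, 0.186 to 0.299) to 199 and 111 CPM in nonclassical monocytes (0.557, 0.508 to 0.611). Klf2, a quiescence factor, was higher in macrophages (347 and 1000.5 CPM, 2.88, 2.51 to 3.32), cDC1 (250.3 and 449.8 CPM, 1.80) and cDC2 (222 and 392 CPM, 1.77). Spib, a PU.1 relative of B cells and plasmacytoid dendritic cells, was higher in cDC2 (15.4 and 24.3 CPM, 1.58, 1.09 to 2.28).

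Further factors of these lineages were counted by the same rule. Of 14 other dendritic cell factors, 6 of 98 measured pairs were lower and 0 higher, among them Id2 in macrophages (127 and 41.4 CPM, ratio 0.327) and in B cells (48.9 and 27.4 CPM, 0.561). Of 25 other monocyte and macrophage factors, 7 of 130 pairs were lower and 2 higher, led by Bhlhe41 in B cells (26.3 and 7.88 CPM, 0.299) and Bach2 in macrophages (102 and 222 CPM, 2.16). Of 12 growth factor and cytokine receptors that act upstream, 6 of 78 pairs were lower and 3 higher. Csf2rb, the signalling chain of the GM-CSF receptor, stood at 157 and 74.3 CPM in macrophages (0.473), and Kit at 87.5 and 48.1 CPM in cDC1 (0.550).

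Of 25 textbook targets of the members, 153 pairs were measured, 34 lower and 10 higher in knockout, beside the same shares over all genes, with median log2 ratios by gate from -0.23 to 0.13. Il10 stood at 20.6 and 5.48 CPM in patrolling monocytes (ratio 0.265, 0.176 to 0.390), and Ly6c2, a classical monocyte surface antigen, at 1012 and 273 CPM in macrophages (0.270, 0.229 to 0.316). Cadm1, an adhesion molecule of cDC1, stood at 89.3 and 40.1 CPM in the cDC1 gate (0.449, 0.331 to 0.602), where Irf8 and Batf3 had overlapping intervals. The summed markers of that gate also differed, from 1674 to 1217 CPM for 6 cDC1 markers (Cadm1 among them) and 256 to 350.2 CPM for 6 cDC2 markers. For 6 microglia markers the sums were 193 and 401 CPM, but Siglech among them is also a plasmacytoid marker. The part of these markers in the Cadm1 and Irf4 differences was not tested. Mrc1, the mannose receptor, went the other way in macrophages, at 89.0 and 317 CPM (3.57, 2.73 to 4.71), and lower in nonclassical monocytes, at 11.7 and 4.51 CPM (0.385). These target lists were drawn up with results of these data already known.

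Across the 14 profiles of 7 gates in 2 libraries, the 3 monocyte genes Spi1, Cebpb and Klf4 were alike. Pearson's r of log2(CPM + 10) was 0.94 for Spi1 and Klf4, 0.90 for Spi1 and Cebpb and 0.89 for Cebpb and Klf4, while Irf8 and Zbtb46 gave 0.70 and Irf4 and Spi1 -0.82. Among 4955 other genes, the closest were Fnbp1, Ubfd1 and Myo9a for Irf8 (0.97 to 0.96), Dnajb11, Kctd12 and Uqcr11 for Batf3 (0.99 to 0.98), Cox6a2, Klrd1 and Kit for Zbtb46 (0.96), and Rpl22l1, Arl5b and Scml4 for Irf4 (0.94 to 0.93). Elmo2, Cd244a and Gpx1 were closest to Spi1 (0.996 to 0.991), Vps13c, Metrnl and Prkcd to Cebpb (0.99), Rap2a, Cd300c2 and Fcer1g to Klf4 (0.98), Hexa, Sdcbp and S100a1 to Cebpa (0.98 to 0.97), and Tpp1, Glul and Apoe to Maf (0.96 to 0.95). These are descriptions over profiles that share cells and libraries.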

How the data were processed

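The deposited files are 2 matrices of UMI counts, whole numbers by gene and cell barcode, from 10x Genomics single cell 3' libraries per the labels' protocols. The submitters' processing notes name Cell Ranger and the mm10 build. Per the file headers, Cell Ranger 4 wrote the flox matrix, with 1002803 barcodes, and 7.0.1 the knockout matrix, with 4096 called barcodes. No source used here gives the counting settings, so version and genotype cannot be told apart. The libraries hold 38623933 and 35944330 UMIs.

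UMIs were summed over the cells of a gate (minimum 3 UMIs of the gate's genes for classical, macrophage and T, 2 for the others) and divided by the gate's total (CPM). Levels have exact Poisson and ratios conditional binomial (Clopper-Pearson) 95% intervals. PCR and capture errors are not covered. With 1 library per group no test was made. A ratio counted where it was at least 1.5-fold, its interval left out 1 and the gene had at least 20 UMIs over both libraries; the same rule over all genes gave the background. Nothing was removed as a doublet in the main values; Scrublet (in scanpy 1.11.5) called 24 flox and 56 knockout cells, and leaving them out was an alternative. Shares of cells were thinned to 1000 UMIs.

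The members, gene lists and contrasts were chosen with earlier results of these data known, and the subsets within gates after the values had been seen. Named were the 9 members in every gate, up to 4 genes per list with at least 100 UMIs and the largest ratios (Irf7 and Klf2 in further gates, Spib, Cadm1 and Kit were added after their values were seen), and per member the 3 genes of highest correlation among genes with at least 50 CPM in 1 profile and 200 UMIs, gate genes and members left out. Cells and genes were handled with Python 3.11.15, numpy 2.4.6 and scipy 1.17.1, and the ratio calls were tested on simulated data.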

Additional observations from a re-analysis of the deposited data

Results flagged for a closer look

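The knockout over flox ratio of Zbtb46 in the cDC2 gate lay on opposite sides of 1 in cells told apart by sex-linked UMIs. In cells with Xist and no Y-linked UMI it was lower in knockout, at 27.7 CPM against 43.4 CPM in flox (log2 ratio -0.62, 25 and 124 UMIs). In cells with a Y-linked and no Xist UMI it was higher, at 61.9 CPM against 27.1 CPM (log2 ratio 1.16, 79 and 19 UMIs). Each group is cells of 1 library, and the difference between the sexes was not tested.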

How the results depend on the processing

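The main counts were 1 pair lower and 3 higher in knockout, and 7 of 9 lineage contrasts met in each library. The 7 were not the same: the Irf4 contrast was met in flox only and the Maf contrast in knockout only. Of 17 alternative settings for all members, 3 were added after the data had been seen: leaving out cells of both dendritic gates, cells with plasmacytoid markers, and cells with a P2ry12, Tmem119 or Sall1 UMI. Cells in exactly 1 gate gave 6 higher. A gate minimum 2 UMIs higher gave 2 lower and 5 higher, and the mean of each cell's CPM 2 lower. Thinning to 1000 UMIs, which left 42 of 63 pairs measured, gave 0 lower and 3 contrasts in flox. Cells with Xist only gave 8 lower and 7 higher of 59 pairs measured, and cells with Y-linked UMIs only 3 lower and 11 higher of 54. The cause was not tested. No share over all genes is at hand for any alternative setting, so these counts cannot be set against a background. Leaving out cells of both dendritic gates gave 2 lower, and leaving out cells with a P2ry12, Tmem119 or Sall1 UMI gave 0 lower and turned the log2 ratio of Maf in macrophages from 1.17 to -0.47. Among 1286 single values, 1021 stayed within the interval of the main value, 264 lay outside it and 1 called value reversed.

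Irf4 in cDC1 kept a log2 ratio between 1.15 and 3.11 in 16 settings. It no longer met the rule in cells of exactly 1 gate or when cells of both dendritic gates were left out. Maf in macrophages ran from -0.47 to 2.29 and fell short of the rule in 5 of 17 settings, among them the mean of each cell's CPM (0.56), thinning (0.42) and leaving out cells with plasmacytoid markers (0.09), one of which, Siglech, is also a microglia gene. Batf3 in B cells rests on 28 UMIs.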
